A study of Homo sapiens with 14 samples.

Results

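Genes for the proteins of the pre-mRNA splicing machinery were taken from the counts by their symbols: the SR proteins (SRSF), the hnRNP proteins (HNRNP), the Sm and other snRNP proteins (SNRP), subunits of SF3A and SF3B, the U2AF subunits, the PRPF genes and the LSm proteins 1 to 8. This gave 83 gene identifiers under 78 symbols, of 19726 identifiers in the series. The counts with OmoMYC and EGFP hold 79 of these identifiers, of which 73 passed the filter on low counts and were tested. The counts with dTAG47 and DMSO hold 78, of which 77 were tested, and 74 identifiers occur in both. SRSF8 and LSM8 were not analysed here, and SF3B4 and HNRNPH2 were analysed with dTAG47 only.

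Introns are removed from pre-mRNA by the spliceosome, which is built from small nuclear ribonucleoproteins (snRNPs), each an RNA bound by a ring of Sm or LSm proteins and by proteins of its own. U1 and U2 snRNPs mark the ends of an intron, with help from U2AF and SF3A/SF3B at the branch site, before the U4/U6.U5 tri-snRNP and the Prp19 complex join for catalysis. SR proteins and hnRNP proteins bind the pre-mRNA and influence which sites are used, and genes of this machinery are known to respond to MYC proteins in several tumour types.

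RNA-seq was done on CHP-134 cells, an established human neuroblastoma line with amplified MYCN. Cells engineered by lentivirus to express EGFP or OmoMYC, a mutated MYC dimerization domain that interferes with MYC proteins, were given 1 µg/ml doxycycline for 3 days (3 replicates each). In a control experiment, parental cells, which carry no degradable protein, received 500 nM dTAG47, a small molecule that directs tagged proteins to degradation, or its solvent DMSO for 18 h (4 replicates each). EGFP and OmoMYC were introduced into CHP-134 separately, so a difference between the lines and an effect of OmoMYC cannot be told apart. In bulk RNA, fewer cells of a type and less RNA per cell cannot be told apart either, and all values are relative to the total of the library.

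Each library held between 28060817 and 53451641 counts. Of 10 neuroblastoma markers, 8 were at 1 CPM or more in each experiment, while DBH and TH were below it. Of the markers of other cell types, 6 of the 9 found were below 1 CPM in each experiment. CPM is the count scaled to 1000000 per library after edgeR's TMM scaling, and a gene is called suppressed or induced where the adjusted p (FDR) of edgeR's quasi-likelihood test was below 0.05. Summed over 12 proliferation genes, the level was 5240 to 5344 CPM under EGFP and 3750 to 3843 CPM under OmoMYC, against 4280 to 4368 CPM under DMSO and 4296 to 4575 CPM under dTAG47. The part of proliferation in the results that follow was not tested.

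Induction of OmoMYC went along with lower RNA for most of these genes. Of the 73 tested, 43 were suppressed, 4 were induced (PRPF40B, SF3A1, SRSF6 and PRPF6) and 26 were not called. Of all 13803 genes tested, 25.7% were suppressed and 27.3% induced. The median log2 fold change was -0.23 for the splicing factors and 0.01 for all tested genes. For 45 of the 73 genes the whole OmoMYC group lay below the EGFP group, and for 5 above it, against 30.3% and 32.0% of all tested genes. The falls were moderate in size, and the fitted changes of the suppressed genes other than PRPF3 ran from -0.17 (HNRNPH1) to -0.83 (LSM5). PRPF3 is set apart because its main identifier (ENSG00000117360.8) was at 0.382 ± 0.0262 CPM with EGFP (SD, n = 3) but at 75.0 CPM with DMSO, so this identifier held few counts in the first experiment. Its call (-1.21, edgeR FDR = 0.0197) was lost without EGFP replicate 1 or OmoMYC replicate 2.

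**Figure D1:**
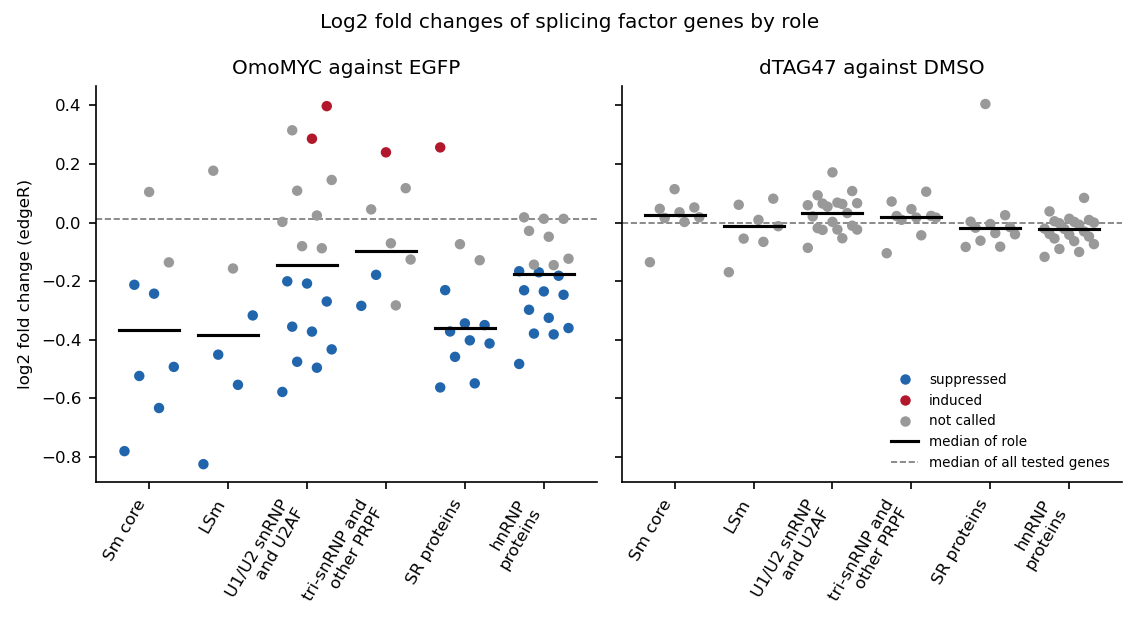
Log2 fold changes from edgeR for each tested gene, grouped by role, with OmoMYC against EGFP on the left and dTAG47 against DMSO on the right; black bars are medians of the roles and the dashed line is the median of all tested genes. On the left most points lie below the dashed line and 42 are suppressed (PRPF3 is left out), whereas on the right no point is called (HNRNPUL2-BSCL2 is left out).

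Taken as a sum, these genes held 2.07%, 1.99% and 1.97% of all counts in the EGFP libraries and 1.79%, 1.81% and 1.76% in the OmoMYC libraries. The groups did not overlap, and the means were 2.01 ± 0.0546% and 1.79 ± 0.0233% (SD, n = 3 each). The exact 2-sided permutation test gave p = 0.1, the smallest that 3 libraries against 3 allow, so this comparison could not pass 0.05. hnRNP genes carried most of this share, with 1.05 ± 0.0444% of counts with EGFP and 0.905 ± 0.0157% with OmoMYC. The tri-snRNP, Prp19 complex and other PRPF genes were at 0.213 ± 0.0125% and 0.221 ± 0.00188% (exact permutation p = 0.4). PRPF8 held the largest part of this sum, at 1257 CPM with EGFP against 261.6 CPM for PRPF6, the next. Shares were not corrected for GC content, and with the GC correction given further on 6 of the 9 tested genes of this role were suppressed.

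**Figure D2:**
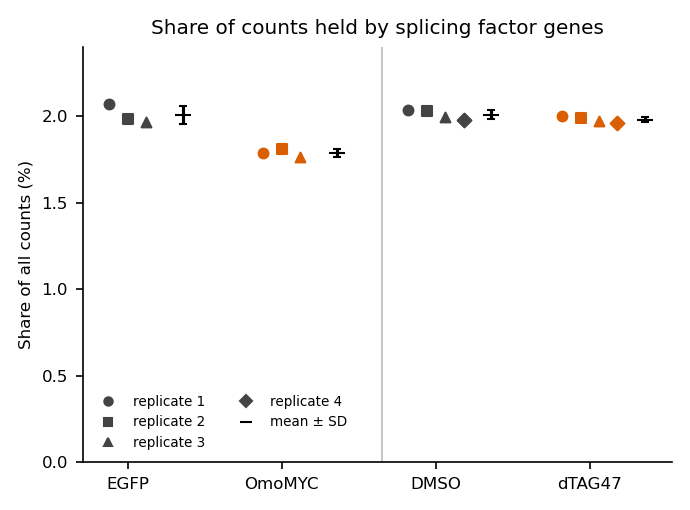
Share of all counts of a library, in percent, held by the splicing factor genes, with 1 point per library, its shape giving the replicate, and bars for mean ± SD. The OmoMYC libraries, at 1.76% to 1.81%, lie below the EGFP libraries at 1.97% to 2.07%, while the DMSO and dTAG47 libraries overlap.

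The Sm proteins form the ring that is loaded onto U1, U2, U4 and U5 RNA, and 6 of their 8 genes were suppressed (median log2 fold change -0.37). Among all tested genes 25.7% were suppressed. SNRPE (ENSG00000182004.8, chr1:203830727-203840280 of hg19), the gene of SmE, fell most. It was at 166, 132 and 104 CPM in the EGFP libraries and at 80.2, 81.4 and 72.1 CPM in the OmoMYC libraries. All OmoMYC libraries lay below all EGFP libraries, and the spread among EGFP libraries was the wider. The log2 fold change was -0.78 ± 0.14 (SE, FDR = 0.00107). SNRPG (SmG; ENSG00000143977.9, chr2:70508494-70520872) fell by 0.63 on the log2 scale, with 65.4 to 89.2 CPM under EGFP and 49.1 ± 0.994 CPM under OmoMYC, again without overlap. SNRPD1 (SmD1; -0.52), SNRPF (SmF; -0.49), SNRPD2 (SmD2; -0.24) and SNRPD3 (SmD3; -0.21) were suppressed as well. SNRPD2 was the most abundant of the ring per length, at 264 CPM per kb of its canonical transcript over all 6 libraries. SNRPB, the gene of SmB/B', was not called: its EGFP libraries were at 104, 120 and 132 CPM and its OmoMYC libraries at 127, 116 and 140 CPM, and the groups overlapped. SNRPN, a paralogue of SNRPB expressed mainly in neurons, was low in every library (2.62 to 4.12 CPM under EGFP, 2.32 to 3.45 CPM under OmoMYC) and was not called either. Its log2 fold change was -0.14, with a 95% interval from -0.54 to 0.26.

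LSm proteins form a ring of the same kind on U6 RNA, and LSM1 belongs to a cytoplasmic ring that acts in mRNA decay. Of the 6 genes tested, LSM5, LSM3, LSM6 and LSM1 were suppressed, against 25.7% of all tested genes, and LSM4 and LSM7 were not called. LSM5 (ENSG00000106355.5, chr7:32524950-32534895 of hg19) had the largest fall of the splicing factors apart from PRPF3. It was at 55.3, 42.7 and 33.5 CPM under EGFP and 26.0, 25.4 and 22.8 CPM under OmoMYC. The groups did not overlap, although EGFP replicate 3 was nearer to the OmoMYC libraries than to EGFP replicate 1. The log2 fold change was -0.83 ± 0.15 (SE, FDR = 0.00129), and it ranged from -1.02 to -0.64 as each library was left out. With the GC correction given further on it was -0.42. LSM3 (-0.55) and LSM6 (-0.45) also kept their calls. LSM4 had a log2 fold change of -0.16 (FDR = 0.0892), and LSM7, the most abundant LSm gene per length, had one of 0.18 with a 95% interval from -0.07 to 0.42. LSM2 was tested with dTAG47 only, as its main identifier was not analysed with OmoMYC and 2 others were nearly at 0 there.

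Proteins of U1 and U2 snRNPs and U2AF recognise the ends of the intron, and here the 18 tested genes divided: 9 were suppressed, 2 were induced and 7 were not called (median -0.14). Among all tested genes 25.7% were suppressed and 27.3% induced. With the GC correction given further on, 11 of the 18 were suppressed and 2 induced (median -0.24), against 37.9% and 23.2% of all genes. SNRPB2 (ENSG00000125870.6, chr20:16710606-16723209), a U2 protein, was at 63.3, 57.2 and 50.1 CPM under EGFP and 37.8, 39.8 and 36.5 CPM under OmoMYC. Its log2 fold change was -0.58 ± 0.09 (SE, FDR = 0.000563), and no OmoMYC library reached an EGFP library. SNRPA1 (-0.50), whose product binds U2 RNA together with that of SNRPB2, fell as well. PRPF39 (-0.43), which is linked to U1, SNRPA of U1 (-0.20), SF3A3 (-0.27), SF3B5 (-0.21) and SF3B6, listed as SF3B14 (-0.36), were suppressed too. U2AF1, the subunit of U2AF that contacts the AG at the end of the intron, fell from 179 ± 13.7 to 139 ± 5.92 CPM (-0.37, FDR = 0.0021). Its partner U2AF2, which binds the polypyrimidine tract, was at 246 ± 34.8 CPM under EGFP and 246 ± 8.19 CPM under OmoMYC, a log2 fold change of 0.00 (95% interval -0.18 to 0.19). SF3B1, the large SF3B subunit mutated in several cancers, was at 511 ± 36.4 and 481 ± 14.6 CPM and was not called (-0.09). U2AF1L4, a paralogue of U2AF1, was low at 2.26 ± 0.690 and 2.80 ± 0.0332 CPM and was not called.

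SF3A1 and PRPF40B moved the other way, although with the GC correction SF3A1 was at only 0.09 and PRPF40B was no longer called (0.04). SF3A1 (ENSG00000099995.14, chr22:30727977-30752908), a U2 snRNP subunit, was at 292, 311 and 334 CPM under EGFP and 371, 381 and 391 CPM under OmoMYC, with no overlap. Its log2 fold change was 0.29 ± 0.07 (SE, FDR = 0.00498), while SF3A3 of the same complex fell and SF3A2 was not called (0.15). PRPF40B, which is linked to U1, rose from 13.5 ± 1.07 to 17.7 ± 0.842 CPM (0.40, FDR = 0.00513).

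**Figure D3:**
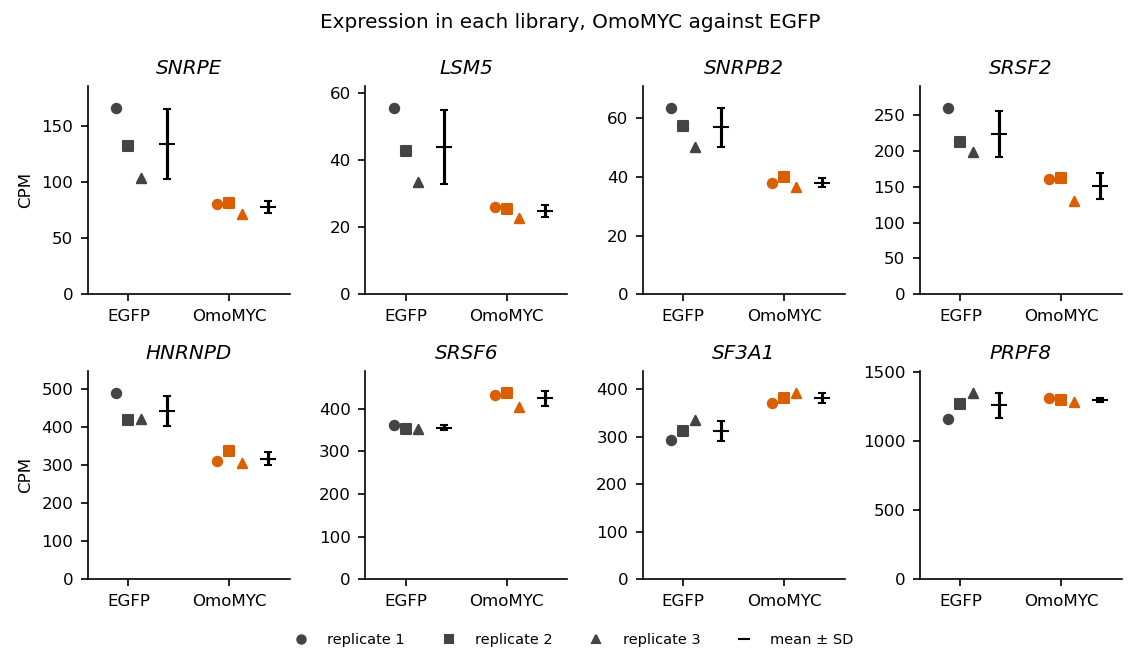
Expression in CPM (linear axis from 0) in each EGFP and OmoMYC library for 8 genes, the shape giving the replicate and bars giving mean ± SD. SNRPE, LSM5, SNRPB2, SRSF2 and HNRNPD were suppressed, SRSF6 and SF3A1 were induced, and PRPF8, at 1160 to 1344 CPM, was not called.

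Among the tri-snRNP, Prp19 complex and other PRPF genes, 3 of 9 were suppressed (PRPF3, PRPF38B and PRPF4), 1 was induced and 5 were not called. These counts are to be read against 25.7% suppressed and 27.3% induced of all tested genes, and PRPF3 held few counts. PRPF8, the large protein at the catalytic centre of the spliceosome, was the most abundant of them per length. Its libraries were at 1160, 1266 and 1344 CPM under EGFP and 1310, 1298 and 1281 CPM under OmoMYC, which overlapped (log2 fold change 0.04, 95% interval -0.08 to 0.17). PRPF19, the ubiquitin ligase that names its complex, was at 223 ± 21.9 and 241 ± 3.73 CPM (0.12, not called). PRPF38B fell by 0.28 on the log2 scale (FDR = 0.0113). PRPF4, a U4/U6 protein, was called at -0.18 with an FDR of 0.0497, which was lost without any of 4 libraries (EGFP replicate 2 or any OmoMYC replicate). PRPF6, which bridges the parts of the tri-snRNP, rose from 262 ± 24.4 to 309 ± 8.47 CPM (0.24, FDR = 0.0211). That call was lost without the same 4 libraries, and the direction turned once a correction for GC content was applied.

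SR proteins carry domains rich in arginine and serine and promote the recognition of exons. Of their 12 tested identifiers 9 were suppressed and 1 was induced (median -0.36), against 25.7% and 27.3% of all tested genes. SRSF2 (ENSG00000161547.10, chr17:74730197-74733415) was at 259, 213 and 198 CPM under EGFP and 161, 162 and 130 CPM under OmoMYC. The groups did not overlap, and the log2 fold change was -0.56 ± 0.11 (SE, FDR = 0.00193). SRSF7 (-0.46), SRSF3 (-0.41) and SRSF1 (-0.40) are abundant members and fell by similar amounts, SRSF1 from 530 ± 40.8 to 401 ± 14.0 CPM. SRSF10 is listed under 2 identifiers, ENSG00000215699.3 and ENSG00000188529.10, which were called at -0.55 and -0.37 and may divide the reads of 1 gene. SRSF9, the most abundant SR gene per length (208 CPM per kb), was not called (-0.07, 95% interval -0.20 to 0.05). SRSF6 (ENSG00000124193.10, chr20:42086533-42094686) was induced. It was at 363, 352 and 352 CPM under EGFP and 433, 436 and 404 CPM under OmoMYC, a log2 fold change of 0.26 ± 0.06 (SE, FDR = 0.00495). Without OmoMYC replicate 2 its FDR was 0.0572, and with the GC correction its fold change was 0.42.

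hnRNP proteins coat nascent RNA and often act against the use of nearby splice sites. Of 20 tested genes, 12 were suppressed, 0 were induced and 8 were not called, with a median of -0.18. These counts are to be read against 25.7% suppressed and 27.3% induced of all tested genes. HNRNPD, also known as AUF1 and a binder of AU-rich RNA (ENSG00000138668.14, chr4:83273651-83295656), fell most. It was at 489.6, 419.8 and 422 CPM under EGFP and 310.3, 337 and 306 CPM under OmoMYC, without overlap (log2 fold change -0.48 ± 0.08 SE, FDR = 0.000497). HNRNPC (-0.38), which binds uridine tracts, and HNRNPR (-0.38) followed. Among the other abundant members, HNRNPA2B1 fell from 1138 ± 119.8 to 908 ± 25.5 CPM (-0.33), HNRNPA1 from 1364 ± 65.9 to 1203 ± 26.3 CPM (-0.18), HNRNPU by 0.24 on the log2 scale and HNRNPK from 805 ± 46.1 to 716 ± 24.2 CPM (-0.17). HNRNPA1 was also the most abundant per length, at 343 CPM per kb, and HNRNPA1L2, a copy of it with near-identical sequence whose reads may be shared, was not called (-0.05). The calls of HNRNPA1, HNRNPK and HNRNPH1 were each lost when OmoMYC replicate 1, OmoMYC replicate 3 or EGFP replicate 2 was left out. HNRNPM (-0.03), HNRNPUL1 (0.01) and HNRNPA0 (0.02) were not called.

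MYC proteins and OmoMYC bind the E-box, and its canonical form CACGTG, which reads alike on both strands, was therefore searched in the 250 bases before each gene start in the RefSeq promoter sequences (GRCh38.p14). Of the 78 symbols 68 had a promoter there, and 7 of these (10.3%) held the motif in at least 1 window: HNRNPA3, HNRNPD, HNRNPDL, HNRNPH3, HNRNPH2, HNRNPM and SF3B1. Among genes tested with OmoMYC that had a promoter, 11.3% held it, and among all genes in the promoter sequences 7.73%. It was present in 4 of 34 suppressed splicing factors with a promoter (11.8%) and in 2 of 24 that were not called (8.33%). Among all genes with a promoter it was present in 10.2% of those suppressed and 11.7% of those not called. The windows of HNRNPD, HNRNPA3 and HNRNPH3 (suppressed) and of HNRNPM (not called) are shown, 5′ to 3′ toward the gene start, with the E-box in capitals, because they carry the motif beside different calls (with the GC correction HNRNPH3 was no longer called and HNRNPM was called suppressed).
HNRNPD (chr4:82373992-82374241, minus strand): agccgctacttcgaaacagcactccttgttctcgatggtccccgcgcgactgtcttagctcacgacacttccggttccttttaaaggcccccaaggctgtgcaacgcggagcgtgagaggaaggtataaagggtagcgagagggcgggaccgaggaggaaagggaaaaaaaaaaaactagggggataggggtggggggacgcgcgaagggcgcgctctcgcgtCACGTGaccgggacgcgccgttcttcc
HNRNPA3 (chr2:177212544-177212793, plus strand): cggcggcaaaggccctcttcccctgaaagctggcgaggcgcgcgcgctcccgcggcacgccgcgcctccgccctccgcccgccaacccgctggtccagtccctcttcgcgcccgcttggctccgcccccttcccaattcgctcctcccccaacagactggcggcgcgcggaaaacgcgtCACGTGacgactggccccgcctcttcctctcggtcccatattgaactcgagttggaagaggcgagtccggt
HNRNPH3 (chr10:68331443-68331692, plus strand): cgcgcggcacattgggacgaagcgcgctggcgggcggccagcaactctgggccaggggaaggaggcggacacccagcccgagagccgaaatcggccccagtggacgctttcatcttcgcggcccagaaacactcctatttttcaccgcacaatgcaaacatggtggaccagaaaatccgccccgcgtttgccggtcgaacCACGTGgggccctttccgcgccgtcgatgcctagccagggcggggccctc
HNRNPM (chr19:8444725-8444974, plus strand): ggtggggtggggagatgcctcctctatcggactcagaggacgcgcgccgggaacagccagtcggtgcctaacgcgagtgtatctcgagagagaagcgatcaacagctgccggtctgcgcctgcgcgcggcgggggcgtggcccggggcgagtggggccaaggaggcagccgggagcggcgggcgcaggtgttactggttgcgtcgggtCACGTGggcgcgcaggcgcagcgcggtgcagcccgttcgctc
The motif began 27 bases before the start in HNRNPD, 71 in HNRNPA3, 50 in HNRNPH3 and 42 in HNRNPM. HNRNPD and HNRNPA3 share the flanks gtCACGTGac, and HNRNPM has gtCACGTGgg. A match of letters does not show binding, and its absence from a window says nothing on binding elsewhere.

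With the replicate number as a block, 43 genes were again suppressed and 4 induced (28.0% and 30.7% of all genes). Leaving out each library in turn, 35 of the 47 called genes kept their call throughout, 12 lost it at least once and 0 turned direction. The number suppressed ranged from 35 (without OmoMYC replicate 3) to 48 (without EGFP replicate 3). Leaving out a library changes the test of every gene, and the shares of all genes in these fits are not given here. The examples of largest fold change among the 12 were PRPF3, SF3B6 (listed as SF3B14), SRSF6, PRPF6 and HNRNPDL. The EGFP libraries did not lie evenly. EGFP replicate 1 was the highest EGFP library for 36 of the 43 suppressed genes and EGFP replicate 3 the lowest for 30, and the same held for 74.0% and 69.6% of all suppressed genes. Among all tested genes these shares were 42.7% and 39.5%. OmoMYC replicate 3 was the lowest OmoMYC library for 37 of the 43, against 64.1% of all suppressed genes and 41.6% of all tested genes.

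The fold changes also moved with base composition. Across the 72 tested genes with an annotated transcript, the log2 fold change correlated with transcript GC content (Pearson's r = 0.558, Spearman's rho = 0.599), as it did across all genes (r = 0.333, rho = 0.486). These correlations are across genes of the same libraries, and genes are not independent replicates. Below 50% GC, 36 of 48 splicing factors (75.0%) were suppressed, against 40.6% of all tested genes in that range. From 50% GC, 6 of 24 (25.0%) were suppressed, against 8.82% of all genes. LSM5, SNRPE, SNRPG and SNRPB2 have between 35.7% and 39.7% GC, while PRPF6 and PRPF40B have 57.0% and 58.1%. A trend on GC content and transcript length was then removed from each library, which also takes away any part of the treatment effect that follows these features. Then 50 genes were suppressed and 4 induced, with a median of -0.19 (37.9% and 23.2% of all genes, median -0.07). Of the 43 suppressed genes 35 stayed suppressed, and 8 were no longer called: HNRNPH1, HNRNPH3, HNRNPK, LSM1, PRPF39, SF3B14, SRSF12 and SRSF10 under ENSG00000188529.10. Of the 43 fold changes 25 shrank by more than 1.5 times or turned, 15 stayed within 1.5 times and 3 grew by more. The leading falls were among those that shrank: LSM5 went to -0.42, SNRPE to -0.43, SNRPG to -0.24 and SNRPB2 to -0.24, while SRSF2 was at -0.59. There were 14 newly suppressed genes, among them U2AF2 (-0.34), PRPF8 (-0.25), PRPF19 (-0.13), SNRPB (-0.11) and LSM4 (-0.43), while SNRPC and SRSF5 became induced. SRSF6 stayed induced at 0.42 and SF3A1 at 0.09, down from 0.29. PRPF40B was no longer called, and PRPF6 turned from 0.24 to -0.08 and was then called suppressed. HNRNPK moved from -0.17 to 0.00. By role, the corrected medians were -0.307 (LSm), -0.245 (Sm) and -0.243 (U1, U2 and U2AF). They were -0.183 (SR), -0.153 (hnRNP) and -0.126 (tri-snRNP and other PRPF). Suppressed in that order were 4 of 6, 7 of 8, 11 of 18, 8 of 12, 14 of 20 and 6 of 9. Without the correction the SR genes were at -0.361 and the U1, U2 and U2AF genes at -0.144, so the order of the roles depended on it. The cause of the relation with GC content was not tested.

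**Figure D4:**
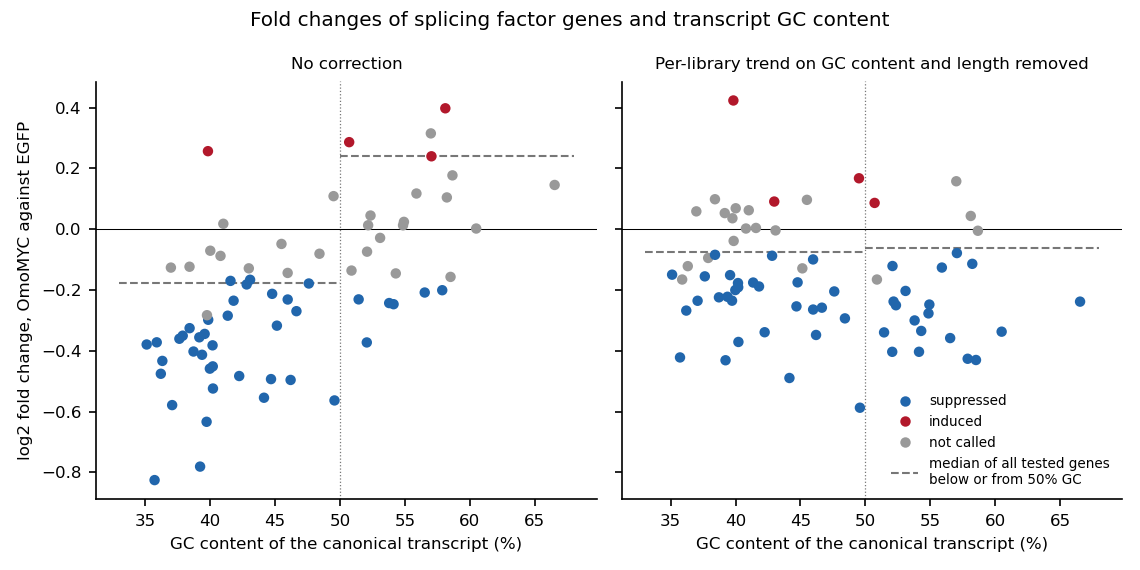
Log2 fold change with OmoMYC against the GC content of the canonical transcript (%), 1 point per splicing factor gene, coloured by its call, before (left) and after (right) the removal of a trend on GC content and length from each library; PRPF3 is left out. Dashed lines are medians of all tested genes below and from 50% GC, which lie at -0.18 and 0.24 on the left and at -0.07 and -0.06 on the right.

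Other genes of the splicing pathway were described from lists that hold none of the genes above. Of 131 tested identifiers, 50 were suppressed and 16 induced (median -0.14), to be read against 25.7% and 27.3% of all tested genes. Among 20 further snRNP proteins, 8 were suppressed and 1 was induced. SNRNP48 (-0.68) and ZCRB1 (-0.43), both of the minor U11/U12 snRNP, fell most, and DDX23, the helicase of U5, rose by 0.18; with the GC correction these last were at 0.00 and -0.03. SNRNP70, the main U1 protein, was not called (0.08). Of 21 tested identifiers for snRNP assembly and Sm methylation, 11 were suppressed and 0 were induced. GEMIN2, a partner of SMN, fell from 30.0 ± 3.96 to 19.5 ± 0.286 CPM (-0.62, FDR = 0.00064). SMN2 was called under an identifier outside the annotation used here (-0.53) and not called under its usual one (-0.28), and its reads may be shared with the near-identical SMN1. PRMT5, which methylates Sm proteins, was not called (-0.13).

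Of 37 tested identifiers of spliceosome assembly, catalysis and release, 17 were suppressed, with U2SURP (-0.60) and CWC15 (-0.57, under an identifier outside the annotation) lowest, and only CWC25 was induced (0.22). DDX39B counts there under 2 identifiers, at means of 4.536 and 0.3557 CPM, and was at 79.0 CPM with DMSO under another. DHX16 and PUF60 were not tested with OmoMYC. Among SR protein kinases, SRPK1 fell from 471 ± 45.1 to 335 ± 10.4 CPM (-0.49, FDR = 0.000399), whereas CLK1 rose from 49.6 ± 5.94 to 83.0 ± 3.00 CPM (0.74, FDR = 0.000101) and CLK4 rose by 0.37. PNN, an SR-like protein of the exon junction, fell by 0.31 on the log2 scale. In that list of 16, 4 genes were suppressed and 4 induced, shares near those of all tested genes. Of 25 tested identifiers of other regulators 8 were suppressed and 4 induced, to be read against 25.7% and 27.3% of all tested genes. CELF2 (-0.57) and SYNCRIP (-0.49) were lowest and RBM5 (0.33) and EWSR1 (0.32) highest. With the GC correction 10 were suppressed and 8 induced, against 37.9% and 23.2% of all genes. The identifiers of DDX5 in this list were at means of 1.135 and 0.3252 CPM and were not called. The first of them (ENSG00000108654.7) was at 1134 CPM with DMSO, so it held few counts with OmoMYC and EGFP, like PRPF3. These values do not show the level or change of DDX5. Of 12 neural regulators 2 were suppressed and 6 were induced, but with the GC correction these were 4 and 5. PTBP2, the neural form of PTBP1, had a log2 fold change of -0.49, or -0.20 with the correction. CELF3 rose from 96.1 ± 16.1 to 202 ± 11.3 CPM (1.07, FDR = 3.1e-05) and CELF5 from 11.5 ± 1.75 to 22.9 ± 2.02 CPM (0.99), and with the correction they were at 0.77 and 0.66. With the GC correction, 69 of the 131 identifiers were suppressed and 23 induced, to be read against 37.9% and 23.2% of all tested genes in that fit.

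In parental cells, dTAG47 left these genes close to their DMSO levels. Of 77 tested, 0 were called by edgeR, DESeq2 or limma-voom, while edgeR called 0.0415% of all 14470 genes suppressed and 0.117% induced, and DESeq2 0.111% and 0.297%. An unadjusted p below 0.05 was found for 7.28% of all genes. The splicing factors at that unadjusted level were 3 in number. The median log2 fold change was 0.00, and apart from SRSF10 and HNRNPUL2-BSCL2 the changes lay between -0.17 and 0.17. The dTAG47 libraries lay entirely below the DMSO libraries for 1 gene (LSM6) and entirely above for 1 (HNRNPUL2-BSCL2), against 1.47% and 1.87% of all tested genes. Of 135 tested genes of the pathway lists, 0 were called as well. In total the splicing factors held 2.01 ± 0.0275% of counts with DMSO and 1.98 ± 0.0166% with dTAG47 (SD, n = 4 each, exact 2-sided permutation p = 0.143, where 0.0286 is the smallest possible). Taken by replicate number, the share was lower with dTAG47 in 4 of 4 pairs, as was that of the hnRNP genes, and the exact permutation test within pairs gave p = 0.125, the smallest that 4 pairs allow.

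LSM6 had the lowest p. It was at 30.6, 29.1, 28.5 and 27.7 CPM under DMSO and 27.5, 25.5, 25.2 and 24.8 CPM under dTAG47, with a narrow gap between the groups. The log2 fold change was -0.17 ± 0.05 (SE, unadjusted p = 0.0061, edgeR FDR = 0.608). PRPF38B was at 97.0, 98.1, 94.4 and 93.0 CPM under DMSO and 88.2, 93.6, 88.2 and 85.7 CPM under dTAG47 (-0.10). HNRNPA2B1 was at 1517, 1477, 1413 and 1389 CPM under DMSO and 1380, 1407, 1336 and 1321 CPM under dTAG47 (-0.09). For both the groups overlapped and the FDR was 0.673. Parental libraries of the same number, and of the same replicate set (1 and 2 or 3 and 4), deviated together, and with the replicate number as a block LSM6 (-0.17, FDR = 0.0208), PRPF38B (-0.11, FDR = 0.0418) and HNRNPA3 (-0.10, FDR = 0.0388) were called suppressed, with 2.5% of all genes suppressed and 2.11% induced in that fit. These genes were suppressed with OmoMYC too (-0.45, -0.28 and -0.36), as were 43 of all 73 splicing factors tested there. A factor for the replicate sets (1 and 2 against 3 and 4) called the same 3 and HNRNPA2B1 (2.9% of all genes suppressed, 2.58% induced), whereas the block with the GC correction called 0 suppressed and only SRSF10 induced (0.346% and 1.02% of all genes). HNRNPA3 was chosen after its values were seen: it was at 702, 717, 661 and 645 CPM under DMSO and 647, 695, 616 and 584 CPM under dTAG47.

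**Figure D5:**
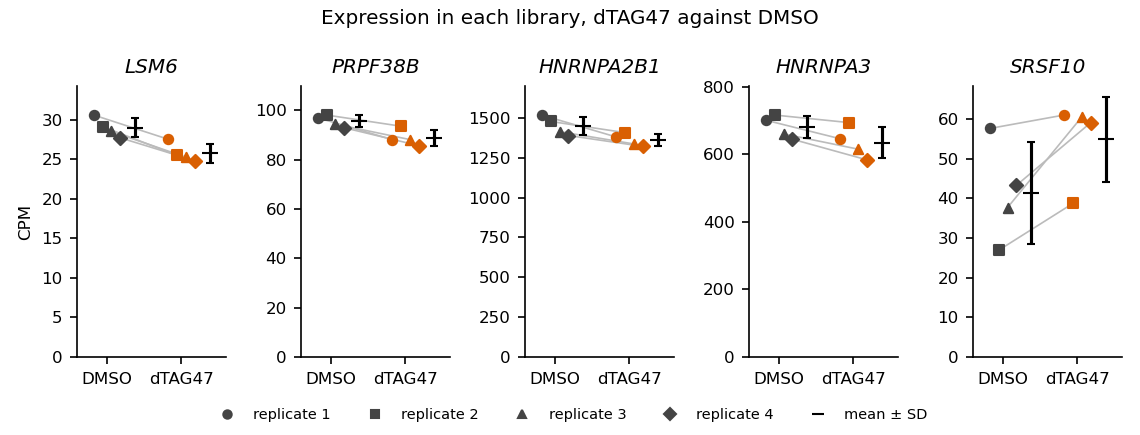
Expression in CPM (linear axis from 0) in each DMSO and dTAG47 library of parental cells for 5 genes, with lines joining libraries of the same replicate number and bars giving mean ± SD. Each line falls for LSM6, PRPF38B, HNRNPA2B1 and HNRNPA3 and rises for SRSF10, whose replicate 2 libraries are the lowest of their groups at 26.9 and 38.7 CPM.

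SRSF10 (ENSG00000188529.10, chr1:24290837-24307417 of hg19) varied most between DMSO libraries among members of at least 1 CPM. It was at 57.6, 26.9, 37.7 and 43.3 CPM under DMSO and 61.0, 38.7, 60.6 and 59.1 CPM under dTAG47, which overlapped (0.40 ± 0.24 SE, FDR = 0.685). With replicates 3 and 4 alone it was called induced (0.56), as were SF3B5, SNRPD2 and SNRPC, which were chosen after their values were seen (2.93% of all genes were induced and 3.24% suppressed there). HNRNPA3 alone was suppressed in these libraries, and 0 were called with replicates 1 and 2 alone (0.0207% of all genes suppressed, 0.0276% induced). HNRNPUL2-BSCL2, a readthrough transcript outside the roles above, was at 0.171 to 0.234 CPM under DMSO and 0.259 to 0.371 CPM under dTAG47 (0.59, FDR = 0.673), and some of its reads may come from the genes it overlaps.

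The genes with the largest falls with OmoMYC stood as follows in parental cells. SNRPE was at 166 ± 7.67 CPM under DMSO and 168 ± 3.56 CPM under dTAG47 (0.02, 95% interval -0.07 to 0.10). LSM5 was at 46.2 ± 3.99 and 44.1 ± 2.47 CPM (-0.07, 95% interval -0.19 to 0.06). SRSF2 had a log2 fold change of -0.08, SRSF1 of -0.04, SRSF3 of -0.02 and SNRPD1 of 0.02. Among the other genes followed in both experiments, SNRPB (0.03), SF3B1 (-0.02), U2AF1 (-0.01), U2AF2 (0.06), PRPF8 (0.02), PRPF19 (0.05), HNRNPA1 (0.00), HNRNPK (0.01), LSM4 (0.06) and SNRPN (-0.14) were not called. SF3B4, an SF3B subunit tested in parental cells only, was at 70.6 ± 3.82 and 73.8 ± 4.71 CPM (0.06), and LSM2 was at 42.8 ± 1.33 and 41.2 ± 1.70 CPM (-0.06). The fold changes with dTAG47 correlated with GC content as well (r = 0.384, rho = 0.577 across 77 genes, r = 0.314 and rho = 0.468 across all), over a much smaller range.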

How the data were processed

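Counts per gene as deposited by the authors were used for both experiments. Per the study's methods, reads were trimmed with Cutadapt, aligned to hg19 with STAR and counted per gene with FeatureCounts. Ribosomal RNA was depleted for the parental libraries, and the selection of RNA for the EGFP and OmoMYC libraries is not restated in those methods. The annotation, the strand setting and the treatment of reads that map to several places are not given in the sources used here, so genes with near-identical copies or several identifiers are uncertain. The study tested differences with DESeq2. The authors' counts sum to 28060817 to 38358128 per library for EGFP and OmoMYC and 40861430 to 53451641 for DMSO and dTAG47. This depth and the number of replicates set the precision of each value.

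From these counts, OmoMYC was compared with EGFP and dTAG47 with DMSO, each within its own experiment, by edgeR 4.0.16 (R 4.3.3) with filterByExpr, TMM factors and the robust quasi-likelihood test, and p-values were adjusted by the Benjamini-Hochberg method over all 13803 and 14470 genes tested. Levels in CPM were scaled by the TMM factors, and CPM per kb divides by the length of the canonical transcript. Intervals of fold changes are 95% intervals from the standard error and a normal quantile of 1.96. They can be narrower than the quasi-likelihood test implies. For LSM4 with OmoMYC the interval ran from -0.30 to -0.015, while that test gave an unadjusted p of 0.0533. Alternatives were DESeq2 1.42.0, limma-voom (limma 3.58.1), other scaling factors and filters, a block for the replicate number, a correction for GC content and length, each library left out, and, in parental cells, the replicate sets 1 and 2 or 3 and 4. The scripts were tested on simulated data. In parental cells, deviations of same-numbered libraries correlated at 0.131, 0.397, 0.357 and 0.481, and the block was therefore used as a paired fit. Differently numbered libraries of the same set correlated as well (DMSO 1 with dTAG47 2 at 0.537, DMSO 2 with dTAG47 1 at 0.263, DMSO 3 with dTAG47 4 at 0.469 and DMSO 4 with dTAG47 3 at 0.366), so pairing by number cannot be told apart from a difference between the sets, and neither comes from the labels. Shares of counts were compared with exact 2-sided permutation tests. Replicates are biological replicates per the study's methods.

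The members, the lists of other splicing genes and the tests were chosen with earlier results of these data known. Genes named in the text were first a fixed set of well-known members. Then came the 3 largest falls and rises of each role, among called genes with separate groups and a mean of 1 CPM or more. Those called or of lowest p with dTAG47 and the most and least abundant of each role per length were added. The rule also took the 2 largest falls and rises of each pathway list under the same conditions. Tested matches outside the roles and examples of calls lost when a library was left out completed it. Names outside this rule serve to complete a complex or a count and were chosen after their values were seen. RefSeq sequences of GRCh38.p14 were used for promoters only and matched by symbol. A gene that the rule names is not reported here.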

Additional observations from a re-analysis of the deposited data

Results flagged for a closer look

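Values of each named gene were compared among the 4 libraries of a parental group, and in 6 of 88 such groups 1 library stood apart from the other 3 by more than Dixon's 95% limit. Chance alone flags about 1 in 20 groups. DMSO replicate 4 was low for SNRPN, at 3.18 CPM against 3.8 to 3.87 CPM, and for PRPF4, at 79.3 CPM against 82.4 to 82.9 CPM. Replicate 2 of dTAG47 was low for LSM2 (38.7 CPM against 41.9 to 42.3 CPM), for LSM4 (175 CPM against 196 to 199 CPM) and for SRSF10 (38.7 CPM against 59.1 to 61.0 CPM). For LSM3, dTAG47 replicate 1 was high at 78.4 CPM against 72.5 to 73.2 CPM. SRSF10 in DMSO replicate 2 was also the lowest of its group at 26.9 CPM. The groups of 3 EGFP and OmoMYC libraries were not examined in this way.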

How the results depend on the processing

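With OmoMYC, the number of splicing factors suppressed was 43 and lay between 39 and 50 under other tests, scalings, filters and the GC correction, and between 35 and 48 as each library was left out. The number induced was 4 under each of these settings and 2 to 4 with each library left out, being 2 without OmoMYC replicate 2. Besides the main fit, shares of all genes with OmoMYC are given for the replicate block and the GC correction only. The median log2 fold change of -0.231 ranged from -0.251 to -0.187, and from -0.262 to -0.232 with a library left out. The correction for GC content and length turned the sign of 6 named genes. It gave 0.00394 for HNRNPK, -0.126 for PRPF19, -0.250 for PRPF8, -0.114 for SNRPB, -0.337 for U2AF2 and -0.0787 for PRPF6. Together with the replicate block it gave 0.00406 for HNRNPK, -0.127 for PRPF19, -0.251 for PRPF8, -0.114 for SNRPB, -0.337 for U2AF2 and -0.0784 for PRPF6, and the cause was not tested. The share of counts differed by -0.242 to -0.190 percentage points with a library left out.

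The replicate block left 43 suppressed and 4 induced with OmoMYC. Same-numbered libraries there correlated at 0.15, -0.131 and 0.517, and EGFP replicate 1 with OmoMYC replicate 2 at 0.469. Whether libraries of the same number are pairs is therefore not known. In parental cells, the block gave 3 suppressed and 0 induced with dTAG47, the block with the GC correction gave 0 suppressed and 1 induced (SRSF10), a factor for the replicate sets gave 4 suppressed, and replicates 3 and 4 alone gave 1 suppressed (HNRNPA3) and 4 induced, against 0 and 0 without any of these and 0 and 0 as each library was left out. The cause was not tested. The median stayed between -0.00823 and 0.0244. Testing the share of counts within pairs, an alternative chosen after seeing the data, gave the same difference of -0.0286 percentage points.

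The main limits are 3 or 4 libraries a group, the comparison of separately engineered lines, the relation of fold change with GC content, and identifiers that are low or not analysed here in the counts with OmoMYC (PRPF3, LSM2, PRPF31, SF3B4 and HNRNPH2). In the pathway lists, identifiers of DDX5, DDX39B, CLK2, DHX16 and PUF60 were low there too.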
